A study of Homo sapiens with 20 samples.

Results

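The drug and platinum efflux transporters are membrane pumps that move anticancer drugs, glutathione conjugates, nucleotides and copper out of cells or into vesicles. Their levels were read in orthotopic tumors of OVCAR8, an established human ovarian cancer cell line. The members were chosen by symbol, and all 10 were found among the 24196 genes listed: ABCB1, ABCC1, ABCC2, ABCC3, ABCC4, ABCC5, ABCC10 and ABCG2, which belong to the ATP-binding cassette (ABC) family, and the copper ATPases ATP7A and ATP7B.

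The 8 tumors grew in NSG mice, which lack mature lymphocytes and natural killer cells. Of these, 4 came from mice given PBS, the vehicle, and 4 from mice given sodium gluconate, the salt of an organic acid. Per the study's methods, the mice of its treatment experiment were 6 weeks old, carried OVCAR8 cells with a luciferase and mCherry reporter in the ovarian fat pad, and received 1 mg/kg gluconate or PBS by intraperitoneal injection once a week for 35 days. The cells of both groups carried a non-targeting guide RNA (sgNC). The labels call the samples tumors, while the results text of the study speaks of cells, and the labels were followed. The columns marked C were read as PBS and those marked T as gluconate because the study plots the ratio of T to C for gluconate against PBS. The model is a single cell line in an immunodeficient host, and the labels do not tell whether each library is 1 tumor. The 12 libraries of cultured OVCAR8 cells in the series were not analysed here.

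ABC transporters use ATP to drive substrates across membranes. P-glycoprotein, encoded by ABCB1, expels taxanes, anthracyclines and vinca alkaloids, and the ABCC proteins carry mainly organic anions, including glutathione conjugates. Platinum drugs, the backbone of ovarian cancer therapy, are poor substrates of P-glycoprotein, and their export has been linked to ABCC2 and to the copper pumps ATP7A and ATP7B. OVCAR8 is also the parent of NCI/ADR-RES, a doxorubicin-selected line known for high ABCB1.

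ABCB1 is the member with the highest level and, in FPKM, the widest range between tumors. Its gene lies on chromosome 7 of GRCh38, positions 87503633 to 87713323, on the minus strand (GENCODE 29). RefSeq gives it a distal and a proximal start, 112 kb apart. Both promoters are shown for that reason, with that of ABCC2, the member with the lowest mean level, for contrast. Each sequence runs from 250 bases before to 50 bases after the start, on the strand of the gene, from RefSeq (GRCh38.p14). Capitals mark matches to 3 motifs, none of which contains another, searched on both strands so that either orientation counts. The inverted form of the CCAAT box was searched as ATTGG. For the binding site of Sp1, the hexamer GGGCGG, called the GC box, was used. The TATA box was searched as TATAAA. The distal ABCB1 window is chr7:87713246-87713545 on the minus strand, the proximal one is chr7:87600835-87601134 on the minus strand, and the ABCC2 window is chr10:99782390-99782689 on the plus strand.

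ABCB1 distal: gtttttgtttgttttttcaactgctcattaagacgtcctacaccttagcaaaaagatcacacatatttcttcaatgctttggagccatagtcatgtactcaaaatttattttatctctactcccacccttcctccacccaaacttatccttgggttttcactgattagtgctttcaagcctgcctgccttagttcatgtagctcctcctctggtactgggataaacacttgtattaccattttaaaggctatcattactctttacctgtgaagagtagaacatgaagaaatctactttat

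ABCB1 proximal: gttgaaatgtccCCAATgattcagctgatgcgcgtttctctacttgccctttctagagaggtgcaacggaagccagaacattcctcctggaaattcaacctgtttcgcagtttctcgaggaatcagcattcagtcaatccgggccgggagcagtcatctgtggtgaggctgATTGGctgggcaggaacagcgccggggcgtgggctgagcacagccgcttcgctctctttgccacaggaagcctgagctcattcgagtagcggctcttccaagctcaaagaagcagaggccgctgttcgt

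ABCC2: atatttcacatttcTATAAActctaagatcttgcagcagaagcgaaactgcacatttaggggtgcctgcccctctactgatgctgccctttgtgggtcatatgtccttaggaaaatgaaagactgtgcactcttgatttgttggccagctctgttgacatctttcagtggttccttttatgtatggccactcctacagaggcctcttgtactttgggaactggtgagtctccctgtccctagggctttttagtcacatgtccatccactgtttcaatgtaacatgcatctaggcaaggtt

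The proximal ABCB1 promoter held 2 CCAAT boxes, 1 in each orientation, and neither a TATA box nor a GC box. The distal window held none of the 3 motifs, and its GC content was 37.7%, against 55.3% in the proximal window and a median of 58.7% over all promoters. The ABCC2 window held 1 TATA box. Among 35116 promoters of the same length, 34.6% held a CCAAT box, 45.0% a GC box and 11.5% a TATA box. The promoter table used here matched 8 of the 10 members, with 16 promoters; those of ABCC1 and ABCC3 were not analysed here. Of these 16, 3 held a CCAAT box, 6 a GC box and 3 a TATA box. The core of the metal response element (TGCACNC or its variant TGCGCNC), the binding site of the metal sensor MTF1, was in 7 of the 16 and in 29.6% of all promoters, and that of the antioxidant response element (TGACNNNGC) in 3 of the 16 and in 13.3% of all. A match of letters is a description of the sequence.

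Levels are in FPKM, fragments scaled by gene length and by the depth of the library, so that genes of different length can be compared. PBS replicate 4 was far shallower than the other libraries, with 3953206 fragments against 39325749 to 46551535, and 15514 genes were above 0 in it against 19991 to 20251. Its correlation with the other libraries over tested genes was 0.938 to 0.951, while the other 7 correlated with each other at 0.98 or more. The members' results are therefore given with and without it, as are some values of other genes and lists. Epithelial and Müllerian markers were present in every library, with 32.4 to 50.7 FPKM of PAX8 and 700 to 1051 FPKM of KRT8. MUC16 and KRT19 were at or near 0. Of the markers of other cell types, CDH5 and CLDN5 (endothelium), PTPRC (leukocytes), PLIN1 (adipocytes) and HBB (red blood cells) stayed at or below 0.0778 FPKM, but other genes of the same lists did not. The 10 endothelial markers in the table summed to 5.19 to 11.8 FPKM under PBS and 5.98 to 9.33 FPKM under gluconate, mostly ESAM, with TIE1 at 2.86 FPKM in PBS replicate 3. The 7 myeloid markers summed to 25.9 to 28.9 and 20.8 to 28.0 FPKM, mostly CD68, and the 5 adipocyte markers to 6.65 to 12.2 and 6.01 to 8.48 FPKM, mostly LPL. The 9 granulosa and theca cell markers summed to 5.69 to 23.3 FPKM under PBS and 3.79 to 5.67 FPKM under gluconate; FOXL2 read 21.5 FPKM in PBS replicate 4 and 1.56 to 3.60 FPKM elsewhere. The 2 red blood cell markers stayed at or below 0.340 FPKM in sum. The part of these genes in the results was not tested. The 11 fibroblast markers summed to 45.5 FPKM in PBS replicate 4, up to 186 FPKM in the other PBS tumors and 166 to 193 FPKM in the gluconate tumors. This sum was almost all COL1A1. Of the others, LUM read 1.70 to 5.18 FPKM, PDGFRB 1.28 to 3.41 FPKM and FAP 0.609 to 3.34 FPKM. COL3A1 read 0.230 to 2.25 FPKM and ACTA2 0.140 to 1.24 FPKM. COL1A2, DCN, PDGFRA, THY1 and POSTN were at or below 0.125 FPKM.

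The members spanned a wide range, from 132 FPKM for ABCB1 to 0.216 FPKM for ABCC2 in mean level over the 8 libraries. After ABCB1 came ABCC1 with 20.2 FPKM, ABCC5 with 7.70 FPKM, ABCC4 with 4.83 FPKM, ABCC10 with 1.95 FPKM and ATP7A with 0.889 FPKM. ATP7B with 0.332, ABCC3 with 0.326, ABCG2 with 0.274 and ABCC2 with 0.216 FPKM closed the order. In each of the first 5 neighboring pairs of this order, the higher gene was above the lower one in all 8 libraries (exact sign-flip permutation test of the log2 ratio, adjusted p = 0.0141 over the 9 pairs). ATP7A was above ATP7B in 7 of 8 libraries (exact permutation test, adjusted p = 0.0234). PBS replicate 4 was the exception, and without it ATP7A was higher in all 7 (exact permutation test, adjusted p = 0.0234). The last 3 pairs did not differ beyond their spread (exact permutation test, adjusted p = 0.281 to 0.844). Pairs that are not neighbors in this order were not tested.

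ABCB1 read 101, 76.6, 371 and 164 FPKM in PBS replicates 1 to 4 and 101, 57.7, 82.9 and 101 FPKM in gluconate replicates 1 to 4. PBS replicate 3 was by far the highest and gluconate replicate 2 the lowest. No gluconate tumor exceeded 101 FPKM, and the groups overlapped through PBS replicates 1 and 2. ABCB1 was the 139th most abundant gene of the table in PBS replicate 3 and the 327th in PBS replicate 4. Elsewhere it ranked from 585th to 1016th. In PBS replicate 3 it took 84780 fragments, 0.213% of the library, and its counting interval (95% Poisson, 368 to 373 FPKM) was narrow beside the distance to the next tumor. Even at the depth of PBS replicate 4 the interval was 158 to 169 FPKM, above the 6 remaining libraries. These intervals cover counting error only.

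The mean level of ABCB1 was 178 ± 134 FPKM in PBS tumors and 85.6 ± 20.4 FPKM in gluconate tumors (SD, n = 4 each). The log2 fold change, gluconate minus PBS on the log2(FPKM + 0.1) scale, was -0.82 ± 0.43 (SE), with a 95% interval from -1.78 to 0.15, and did not pass the test (limma, adjusted p = 0.740). An exact permutation test, with 70 arrangements of the 8 libraries into groups, gave p = 0.2, where the smallest possible p is 0.0286. The unadjusted limma p was 0.0877. Without PBS replicate 4 the log2 fold change was -0.77 ± 0.46 (limma adjusted p = 0.813). Without PBS replicate 2 the difference was larger, -1.13 ± 0.40 (limma unadjusted p = 0.021, adjusted p = 0.604). Without PBS replicate 3 it was -0.37 ± 0.28, and without both PBS replicates 3 and 4, a choice made after the data were seen, it was -0.08 ± 0.21. The size of the difference thus depended on which PBS tumors were kept. In bulk tumors, fewer cells of a type and less RNA per cell cannot be told apart.

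The spread of ABCB1 was also set beside that of all tested genes. Its SD of log2(FPKM + 0.1) over the 7 libraries other than PBS replicate 4 was 0.855, and 99.5% of the 12486 tested genes had a lower one. PBS replicate 3 exceeded the highest of the 6 other deep libraries 3.67-fold, and 14 tested genes, ABCB1 included, stood at least that far above. ABCB1 made up between 59.5% and 90.9% of the summed FPKM of the 8 ABC members. The other 7 ABC members together held 30.8 to 39.3 FPKM in every library, so the composition of the set followed ABCB1.

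The genes whose pattern was most like ABCB1 over the 7 libraries other than PBS replicate 4 were LINC02582, a long noncoding RNA (Pearson r = 0.987, n = 7), CALB1, which encodes the calcium buffer calbindin (r = 0.983, n = 7), and PNPLA4, a lipid hydrolase (r = 0.982, n = 7). CALB1 read 84.0 FPKM in PBS replicate 3 and 72.3 FPKM in PBS replicate 4, against 17.9 to 34.1 FPKM in the other 6 libraries. LINC02582 read 176 and 139 FPKM in those PBS tumors, against 105 to 127 FPKM elsewhere. PNPLA4 read 3.25 and 1.66 FPKM, against 1.53 to 2.02 FPKM. The correlations over 7 libraries lean on PBS replicate 3, and over the 6 libraries without either tumor r was 0.92, 0.97 and 0.89 in the same order. The points share their libraries and depths, and the genes were picked as the nearest of all tested genes.

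The genes around ABCB1 were examined after its values were seen. Within 1 Mb of the gene, 15 other genes were tested. RUNDC3B, which encodes a RUN domain protein, lies on the opposite strand at positions 87627548 to 87832296 of chromosome 7 and shares 86 kb of its span with ABCB1, but no exonic base in GENCODE 29. Over all libraries RUNDC3B had the highest r with ABCB1 of these neighbors (r = 0.96, n = 8), but over the 6 libraries without PBS replicates 3 and 4 it was 0.63, below ABCB4 (0.92) and LOC107986815 (0.88). In PBS replicates 3 and 4 the level of RUNDC3B was 2.16 and 1.47 FPKM, against 0.858 to 1.19 FPKM elsewhere. Whether the libraries keep strand is not given in the sources used here, so reads from introns or antisense RNA of one gene cannot be told apart from those of the other.

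ABCB4, the phosphatidylcholine floppase beside ABCB1 and its nearest relative, read 4.95 FPKM in PBS replicate 3, while the other deep libraries ranged from 3.10 to 4.86 FPKM. It was only 1.25 times its median there, where ABCB1 was 4.04 times. DBF4 (1.08 times), SRI (1.03 times) and CROT (1.02 times) lay close to 1, and DMTF1-AS1 reached 1.94 times. In PBS replicate 3, 8 of the 15 neighbors read above all 6 other deep libraries, by small margins for ABCB4, DBF4 and SRI. The matching share of all tested genes was not computed, so this count cannot be read as a trait of the region. The uncharacterized LOC107986815 read 6.27 and 6.51 FPKM in PBS replicates 3 and 4, against 0.687 to 2.64 FPKM elsewhere. Of the 15 neighbors, 3 (RUNDC3B, SRI-AS1 and LOC107986815) were at least 2 times their median in PBS replicate 3. SRI-AS1 was not highest there, with 1.79 FPKM against 0.486 to 2.47 FPKM in the 6 other deep libraries. The share of all tested genes that reached 2 times their median was not computed.

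ABCC1, on chromosome 16 (positions 15949577 to 16143074, plus strand), encodes MRP1, an exporter of glutathione conjugates and leukotrienes. It read 19.8, 20.6, 20.0 and 17.7 FPKM in PBS replicates 1 to 4 and 20.4, 22.1, 21.6 and 19.5 FPKM under gluconate. The groups overlapped, and the highest value was only 1.25 times the lowest. The log2 fold change was 0.10 ± 0.08 (limma adjusted p = 0.741), with a 95% interval from -0.08 to 0.28, and 0.05 ± 0.07 without PBS replicate 4. ABCC1 was thus the steadiest tested member: 10.1% of tested genes had a lower SD over the 8 libraries.

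ABCC5 and ABCC4 encode MRP5 and MRP4, exporters of cyclic nucleotides and nucleotide analogs. ABCC5, on chromosome 3 (183919934 to 184018015, minus strand), read 7.37, 7.08, 8.78 and 7.31 FPKM in the PBS tumors and 7.20, 8.86, 7.94 and 7.08 FPKM in the gluconate tumors. PBS replicate 3 and gluconate replicate 2 were the highest, and the group ranges were almost the same. Its log2 fold change was 0.02 ± 0.11 (limma adjusted p = 0.944), with a 95% interval from -0.22 to 0.27, and 0.00 ± 0.11 without PBS replicate 4. ABCC4, on chromosome 13 (95019829 to 95301475, minus strand), read 5.46, 4.78, 4.39 and 4.13 FPKM in the PBS tumors and 4.55, 5.53, 4.90 and 4.89 FPKM in the gluconate tumors. The groups overlapped again, and the log2 fold change of ABCC4 was 0.08 ± 0.12 (limma adjusted p = 0.811; 95% interval -0.18 to 0.35) and 0.03 ± 0.10 without PBS replicate 4.

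ABCC10, on chromosome 6 (43427366 to 43450430, plus strand), encodes MRP7, which carries taxanes. It read 1.96, 2.20, 2.75 and 1.36 FPKM in PBS replicates 1 to 4. The gluconate tumors were tightly grouped, at 1.89, 1.83, 1.81 and 1.78 FPKM. PBS replicates 1 to 3 lay above every gluconate tumor and PBS replicate 4 lay below, where 35 fragments gave a 95% Poisson interval of 0.949 to 1.89 FPKM that reached the gluconate values. The log2 fold change was -0.13 ± 0.20 over all libraries (limma adjusted p = 0.825), and -0.23 to -0.26 with quantile normalization, library weights or voom. Without PBS replicate 4 it was -0.30 ± 0.13 (limma unadjusted p = 0.0371, adjusted p = 0.802), and the exact permutation p was 0.0286, the smallest that 35 arrangements can give. Without PBS replicate 4, the groups of 1 of the 6 tested members did not overlap, beside 6.06% of all tested genes, and 1 member had an unadjusted p under 0.05, beside 6.18% of all tested genes. Without PBS replicate 3 in place of PBS replicate 4, the log2 fold change of ABCC10 was 0.02. ABCC10 correlated with ABCB1 at r = 0.83 over the 7 deep libraries and at r = -0.06 over the 6 left when PBS replicate 3 was also set aside.

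ABCC2 and ABCC3, which encode MRP2 and MRP3, the conjugate exporters of the apical and basolateral membranes of hepatocytes, were below the mean of 0.5 FPKM required for the limma fit. ABCC2, on chromosome 10 (99782640 to 99852594, plus strand), read 0.210, 0.171, 0.357 and 0.0694 FPKM in the PBS tumors and 0.218, 0.298, 0.244 and 0.164 FPKM in the gluconate tumors. The PBS values enclosed all gluconate values. The lowest rested on 2 fragments, with a 95% Poisson interval of 0.00840 to 0.251 FPKM, and the other 7 libraries held 51 to 104 fragments each. The difference in mean log2 was 0.20 (exact permutation p = 0.6) and -0.04 without PBS replicate 4 (exact permutation p = 0.886).

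ABCC3, on chromosome 17 (50634777 to 50692252, plus strand), read 0.189, 0.493, 0.385 and 0 FPKM in the PBS tumors and 0.406, 0.447, 0.320 and 0.367 FPKM in the gluconate tumors. The 0 of PBS replicate 4 allows up to 3 fragments, or 0.131 FPKM, taken as the floor of a count of 0, and its 95% Poisson interval, two-sided as for the other members, reaches 0.161 FPKM. The difference in mean log2 was 0.68 (exact permutation p = 0.371). It depended on that library and was 0.15 without it (exact permutation p = 0.714). It also depended on the pseudocount, with 0.14 at a pseudocount of 1 and 1.48 at 0.01.

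ABCG2, on chromosome 4 (88090264 to 88231322, minus strand), encodes BCRP, an exporter of topoisomerase inhibitors and urate. It read 0.517, 0.209, 0.266 and 0.228 FPKM in the PBS tumors and 0.263, 0.215, 0.211 and 0.282 FPKM in the gluconate tumors. PBS replicate 1, with 131 fragments and a 95% Poisson interval of 0.432 to 0.613 FPKM, stood above the other deep libraries, which held 46 to 67 fragments. The difference in mean log2 was -0.19 (exact permutation p = 0.629) and -0.27 without PBS replicate 4 (exact permutation p = 0.514). It turned to 0.03 without PBS replicate 1.

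ATP7A, on chromosome X (77910656 to 78050395, plus strand), encodes the copper pump of the trans-Golgi network that is mutated in Menkes disease. It read 1.05, 0.916, 0.962 and 0.298 FPKM in the PBS tumors and 0.972, 1.06, 0.916 and 0.934 FPKM in the gluconate tumors. In 7 libraries the values fell between 0.916 and 1.06 FPKM. PBS replicate 4 was the exception, and its 95% Poisson interval of 0.143 to 0.548 FPKM, from 10 fragments, did not reach them. The log2 fold change was 0.35 ± 0.33 (limma adjusted p = 0.749) and -0.01 ± 0.14 without PBS replicate 4, with a 95% interval from -0.31 to 0.30. It was 0.13 with quantile normalization, 0.11 with voom on recovered fragments and 0.02 with library weights.

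ATP7B, on chromosome 13 (51930436 to 52012125, minus strand), encodes the copper pump mutated in Wilson disease. It read 0.328, 0.268, 0.216 and 0.387 FPKM in the PBS tumors and 0.351, 0.436, 0.377 and 0.290 FPKM in the gluconate tumors. The upper values were mostly gluconate tumors, but the groups overlapped. The difference in mean log2 was 0.22 (exact permutation p = 0.229) and 0.32 without PBS replicate 4 (exact permutation p = 0.114).

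Across the members, none of the 6 that entered the limma fit passed the test at an adjusted p under 0.05, beside 0 of the 12486 tested genes (0.00%). At an unadjusted p under 0.05 the count was 0 of 6, beside 577 genes, or 4.62%, of all tested. The groups did not overlap for 0 of 6 members, beside 3.49% of tested genes, nor for any of the 4 members below the minimum. Of the 6, 4 had a positive and 2 a negative log2 fold change, and their median was 0.05, beside 0.07 over all tested genes. Without PBS replicate 4 both medians were 0.00. The intervals of ABCC1, ABCC4 and ABCC5 left room for changes of up to 0.35 on the log2 scale, and those of ABCB1, ABCC10 and ATP7A for larger ones.

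**Figure D1:**
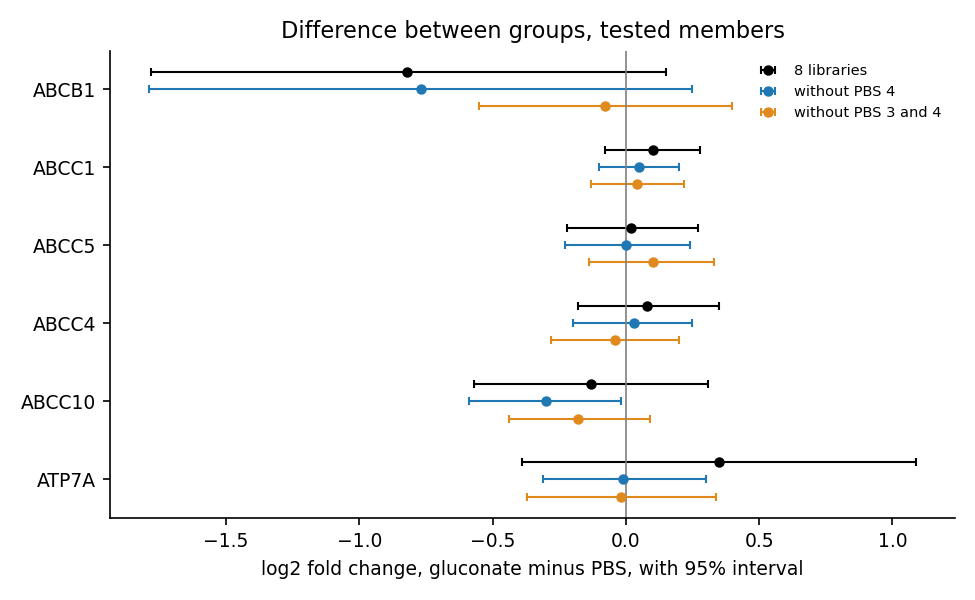
Log2 fold change (gluconate minus PBS, log2(FPKM + 0.1) scale) of the 6 members in the limma fit, with 95% intervals, over 8 libraries (black), without PBS replicate 4 (blue) and without PBS replicates 3 and 4 (orange). ABCB1 moves from -0.82 to -0.08 and ATP7A from 0.35 to -0.01 as PBS libraries are set aside, while ABCC1, ABCC4 and ABCC5 stay within 0.10 of 0.

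Other genes of drug and metal handling were read from 7 lists with 128 genes, of which 120 were in the table and 88 were tested. None passed the test (smallest limma adjusted p = 0.740). An unadjusted p under 0.05 was reached by 8 (9.09%, beside 4.62% of all tested genes), 4 higher and 4 lower under gluconate, and the groups of 6 (6.82%, beside 3.49%) did not overlap. These shares carry no weight as support, because the lists were chosen with earlier results of these data known. The 8 also include closely related genes: MT1E, MT1M and MT1X among the higher, and LRRC8B and LRRC8C among the lower. The count of 8 was 5 without gluconate replicate 2 (5.68%, beside 3.16% of all tested genes) and 2 without gluconate replicate 4 (2.27%, beside 2.14%). The median log2 fold change of the 88 genes was 0.05, beside 0.07 over all tested genes, of which 66.4% had a positive one. Leaving out PBS replicate 4 brought each of these medians to 0.00.

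Copper enters cells through SLC31A1, also an entry route of cisplatin, and ATOX1 hands it to ATP7A and ATP7B. SLC31A1 read 4.78 to 7.17 FPKM in PBS tumors and 7.15 to 7.72 FPKM in gluconate tumors, with a log2 fold change of 0.25 ± 0.13 (limma adjusted p = 0.740) and of 0.13 ± 0.07 without PBS replicate 4. ATOX1 was far more abundant than the pumps it serves, at 72.0 to 109 FPKM under PBS and 83.4 to 93.6 FPKM under gluconate (log2 fold change 0.03 ± 0.12, limma adjusted p = 0.924, and -0.05 ± 0.10 without PBS replicate 4). Of the 19 tested genes of copper uptake, chaperones and storage, 17 had a positive log2 fold change, beside 66.4% of all tested genes. Their median was 0.12, beside 0.07 over all tested genes, and 0.05 without PBS replicate 4, beside 0.00.

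The lowest p of that list belonged to MT1M, a metallothionein, a small cysteine-rich protein that binds zinc and copper. MT1M read 9.64, 10.4, 6.17 and 6.36 FPKM in PBS tumors and 16.2, 15.5, 17.4 and 40.1 FPKM in gluconate tumors. All gluconate tumors were above all PBS tumors, and gluconate replicate 4 was the highest. The log2 fold change was 1.36 ± 0.31 (limma unadjusted p = 0.00155, adjusted p = 0.740) and 1.25 ± 0.32 without PBS replicate 4. Among the other metallothioneins, named after their values were seen, MT1E averaged 216 ± 50.9 FPKM under PBS and 328 ± 58.2 FPKM under gluconate (SD, n = 4 each), and MT1X 163 ± 30.1 and 243 ± 61.9 FPKM. The log2 fold change was 0.62 ± 0.18 for MT1E (limma unadjusted p = 0.0073) and 0.55 ± 0.20 for MT1X (limma unadjusted p = 0.0196). Without PBS replicate 4 these were 0.48 ± 0.15 and 0.44 ± 0.19. Both genes had overlapping groups and an adjusted p of 0.740 in the limma fit. MT2A, the most abundant gene of the list, differed less, with 1348 ± 221 and 1458 ± 214 FPKM (log2 fold change 0.12 ± 0.14), and MT1F had a log2 fold change of 0.15 ± 0.33, or 0.06 ± 0.34 without PBS replicate 4. MT1F read 7.91 FPKM in gluconate replicate 4, 2.55 to 3.05 FPKM in the other gluconate tumors and 2.71 to 4.51 FPKM under PBS. Metallothionein genes are near-identical in sequence, and how shared reads were assigned is not given in the sources used here, so the split between them is uncertain.

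The LRRC8 proteins form the volume-regulated anion channel, through which cisplatin and carboplatin can enter cells. LRRC8C had the lowest p of the entry carriers, with 2.72, 3.04, 3.71 and 2.91 FPKM in PBS tumors and 2.31, 2.55, 2.43 and 2.05 FPKM in gluconate tumors. The groups did not overlap, and the log2 fold change was -0.39 ± 0.13 (limma unadjusted p = 0.0176, adjusted p = 0.740). The remaining subunits, named after their values were seen, had overlapping groups: LRRC8A, the obligatory subunit, had a log2 fold change of -0.24 ± 0.13, LRRC8B of -0.39 ± 0.17, LRRC8D, the subunit most tied to platinum uptake, of -0.03 ± 0.14, and LRRC8E of -0.11 ± 0.11. Without PBS replicate 4 the value was -0.12 ± 0.08 for LRRC8A, -0.10 ± 0.13 for LRRC8D and -0.13 ± 0.11 for LRRC8E. It was -0.41 ± 0.13 for LRRC8C and -0.49 ± 0.15 for LRRC8B. The groups of LRRC8B overlapped only through PBS replicate 4, at 1.73 FPKM against 1.36 to 1.79 FPKM under gluconate. SLC29A1, a nucleoside carrier and the most abundant gene of that list, read 22.9 to 29.4 FPKM under PBS and 26.3 to 29.3 FPKM under gluconate. Of the 11 tested entry carriers, 3 had a positive log2 fold change and 8 a negative one, beside 66.4% positive among all tested genes. Their median was -0.11, beside 0.07 over all tested genes, and -0.13 without PBS replicate 4, beside 0.00.

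Glutathione conjugation prepares drugs for the ABCC exporters. GSTP1, the glutathione transferase linked to platinum resistance, was both the most abundant gene of its list and the one with the lowest p. It read 568, 602, 556 and 444 FPKM in PBS tumors and 590, 587, 618 and 634 FPKM in gluconate tumors, with a log2 fold change of 0.17 ± 0.09 (limma adjusted p = 0.740) and of 0.08 ± 0.07 without PBS replicate 4. The groups overlapped and PBS replicate 4 was the lowest. Of 17 tested genes, 14 had a positive log2 fold change, beside 66.4% of all tested genes, with a median of 0.06, beside 0.07 over all, and of 0.04 without PBS replicate 4.

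Among other ABC transporters of subfamilies B, C and G, the median log2 fold change of the 9 tested genes was 0.08, beside 0.07 over all tested genes, and 0.04 without PBS replicate 4, beside 0.00. ABCB6, a porphyrin transporter, had the lowest p, with 4.50 to 6.30 FPKM under PBS and 6.60 to 7.79 FPKM under gluconate (log2 fold change 0.32 ± 0.12, limma adjusted p = 0.740). The groups of 3 of the 9 genes did not overlap, beside 3.49% of all tested genes, with ABCB6 and ABCC9, the latter named for that reason, among them. TAP1, the peptide transporter of antigen presentation and the most abundant of the list, had a log2 fold change of 0.42 ± 0.19, or 0.28 ± 0.16 without PBS replicate 4. In subfamilies A, D, E and F, with 12 tested genes and a median of 0.04, or -0.02 without PBS replicate 4, ABCD3, a peroxisomal fatty acid transporter, had the lowest p (log2 fold change -0.45 ± 0.18), and ABCE1, a ribosome recycling factor, the highest level (60.5 to 75.3 FPKM). The groups of 1 of the 12 genes, ABCA2, named for that reason, did not overlap, beside 3.49% of all tested genes. Its log2 fold change was 0.39 ± 0.21, or 0.15 ± 0.07 without PBS replicate 4.

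The list of membrane anchors and other resistance proteins was led by EZR, which encodes ezrin, a linker of P-glycoprotein and ABCC2 to actin. EZR read 195 to 359 FPKM under PBS and 240 to 259 FPKM under gluconate. PDZK1, a scaffold of apical transporters, had the lowest p of the 9 tested genes (log2 fold change 0.72 ± 0.47, limma adjusted p = 0.740); it read 0.119 FPKM in PBS replicate 4, and without that library the log2 fold change was 0.28 ± 0.31. Among the transcription regulators, YBX1, the Y-box binding protein, was the most abundant. PBS replicate 4 read 1221 FPKM, and the others ranged from 322 to 386 FPKM.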

How the data were processed

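Bulk polyA RNA-seq of 8 tumor libraries (4 PBS, 4 gluconate) was analysed. The authors deposited FPKM values for 24196 genes by symbol; the submitters' processing notes name GRCh38, while its aligner, read counting, gene models and treatment of mouse reads are not given in the sources used here. Groups followed the labels. Whether the libraries come from separate tumors is not stated, so p-values measure only the spread between these samples. The FPKM values were whole multiples of 1 fragment in 100% of cases (tolerance 0.001 fragments), from which fragments and depth were recovered.

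Differences were tested with limma 3.58.1 in R 4.3.3 (lmFit, eBayes with a trend) on log2(FPKM + 0.1), for the 12486 genes that averaged 0.5 FPKM or more, with two-sided p-values and Benjamini-Hochberg adjustment over all genes tested. A gene passed at an adjusted p under 0.05. Fold changes on this scale understate the change of low genes. Single members were also compared with a two-sided exact permutation test, and neighbors in the order of levels with an exact sign-flip permutation test. The fit was also run on simulated data, with the same relative spread for every gene and no library that deviated beyond its depth. That setting is simpler than these data, so no conclusion is drawn from it. No columns were left unused, and the libraries of 1 group differed by more than sampling noise in all 12 pairs.

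The members and lists were chosen with earlier results of these data known. The text names all 10 members, the gene with the lowest p and the most abundant gene of each other list, SLC31A1, ATOX1 and GSTP1, and the 3 genes most like the most abundant member; other genes were chosen after their values were seen. A further 2 genes that these choices would name are counted but not reported here. Alternatives were pseudocounts of 1 and 0.01, no filter, a minimum mean of 1 FPKM, median ratio scaling, quantile normalization, library weights, voom on recovered fragments, a replicate block, leaving out each library, and counting genes by an unadjusted p together with a minimum size of 1 in log2 fold change; leaving out PBS replicates 3 and 4 together was added after the data were seen. Python 3.11.15, numpy 2.4.6, scipy 1.17.1, pandas 2.3.3 and matplotlib 3.10.9 were used.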

Additional observations from a re-analysis of the deposited data

Results flagged for a closer look

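Groups of 4 were examined for a value far from the other 3, for each member and for depth, 24 groups in all, of which chance flags about 1 in 20. ABCC5 in PBS replicate 3 read 8.78 FPKM against 7.08 to 7.37 FPKM in the other PBS tumors, with a gap of 0.8293 of the range, just past Dixon's critical value for groups of 4. PBS replicate 4 stood apart in depth, with 3953206 fragments against 39895393 to 46551535 in the other PBS tumors, and in genes above 0, with 15514 against 20014 to 20117. ABCB1 in PBS replicate 3 did not pass this criterion, because PBS replicate 4 lay between it and the other PBS tumors.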

How the results depend on the processing

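No tested member passed an adjusted p under 0.05 in the limma fit under any alternative, and the count of genes called was 0 of all tested, as was that of the 7 lists, under each of them, including every fit that left out 1 library (lowest 0, highest 0). Unadjusted p-values under 0.05 numbered 577 genes, 593 with voom on recovered fragments and 1028 of 24196 with no filter. Leaving out 1 library moved this count most without PBS replicate 1 (1214) and PBS replicate 2 (873) and without gluconate replicate 3 (289) and gluconate replicate 4 (267). Counting instead those of them that differed by 1 or more in log2 gave 37 genes over the table, 1 in the lists (MT1M) and 0 members. Leaving out each library in turn, the log2 fold change ranged from -1.13 to -0.37 for ABCB1, from 0.05 to 0.13 for ABCC1, from 0.03 to 0.16 for ABCC4, from -0.04 to 0.09 for ABCC5, from -0.30 to 0.02 for ABCC10 and from -0.0088 to 0.50 for ATP7A. The difference in mean log2 ranged from -0.04 to 0.43 for ABCC2, from 0.15 to 1.00 for ABCC3, from -0.30 to 0.03 for ABCG2 and from 0.12 to 0.32 for ATP7B. The sign turned for ABCC5 with median ratio scaling (-0.04), with quantile normalization (-0.02), without PBS replicate 2 (-0.01) and without gluconate replicate 2 (-0.04), for ABCC10 without PBS replicate 3 (0.02), for ATP7A (-0.0088) and ABCC2 (-0.04) without PBS replicate 4, and for ABCG2 without PBS replicate 1 (0.03). Without PBS replicates 3 and 4, an alternative added after the data were seen, it turned for ABCC4 (-0.04) and ATP7A (-0.02). The causes were not tested. Pseudocounts of 1 and 0.01 gave 0.15 and 0.41 for ATP7A, 0.14 and 1.48 for ABCC3, 0.07 and 0.29 for ATP7B, 0.04 and 0.35 for ABCC2, and -0.06 and -0.23 for ABCG2. With library weights the log2 fold change of ABCB1 was -0.49 ± 0.35. Over median ratio scaling, quantile normalization, library weights and voom, the log2 fold change ranged from 0.02 to 0.30 for ATP7A, from -0.26 to -0.19 for ABCC10, from 0.03 to 0.07 for ABCC1 and from 0.0022 to 0.04 for ABCC4. PBS and gluconate libraries of the same number correlated in their deviations from the group means at -0.18, 0.08, 0.17 and -0.06 for replicates 1 to 4. The highest values with another number were 0.16, 0.06, 0.04 and 0.15. Such correlations cannot tell whether the numbers pair the tumors. With a replicate block in the fit, 0 members and 0 genes passed, 470 genes had an unadjusted p under 0.05, and ABCB1 had an SE of 0.33 and a limma unadjusted p of 0.0438 (adjusted p = 0.758); with 4 complete pairs the block leaves the fold changes themselves unchanged by construction. Depth limits ABCC2, ABCC3, ABCG2 and ATP7B, with 46 to 232 fragments in the deep libraries and 0 to 19 in PBS replicate 4.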
